A study of Mus musculus with 10 samples.

Results

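The transcriptome of sorted pancreatic tuft cells was examined in the 5 tuft cell libraries of a series of 10 libraries. All 5 are described on their own over the 12160 genes listed for the series. They were taken as the libraries whose sample labels name pancreatitis tuft cells, with no selection on measured values, and the 5 libraries of non-tuft epithelial cells were not compared here. Each library was made by Smart-Seq2, a full-length cDNA method for small inputs, from 100 cells of an individual wild-type male CD1 mouse with caerulein-induced pancreatitis, although the strain field of the labels reads Mixed. The cells had passed a gate for Cd45-neg; EpCAM+; Siglec f+ cells. Pools of 100 cells are bulk samples, so fewer cells of a type and less RNA per cell cannot be told apart. No control tissue enters this description, and the caerulein treatment was common to all 5 mice. The study's methods give the days of recovery after it, and the number of PCR cycles of the cDNA, only as ranges. Libraries may therefore differ in either, and neither was set against the values here. The sex labels can be checked against the data: Xist, the long noncoding RNA of the inactive X chromosome, was at 0 in all 5 libraries, and Eif2s3y, a Y-linked gene, lay between 5.03 and 5.46.

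Tuft cells are rare chemosensory epithelial cells with an apical tuft of microvilli that rests on deep actin rootlets. They use a taste-like cascade that ends in the cation channel Trpm5, make eicosanoids and the cytokine IL-25, and depend on the transcription factor Pou2f3. In the pancreas they are hardly seen in healthy adult tissue and appear with injury and acinar to ductal metaplasia.

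Values are log2(RPKM + 1), where RPKM is the read count scaled for transcript length and library size, so that levels of different genes are given per length. The authors quantile normalized them, which gives every library the same set of values. The 9396 highest values were identical in the 5 tuft libraries, the highest being 15.65 in each. The 8407 highest were identical in all 10 libraries of the series, so the set of values is shared with the non-tuft libraries. Linear values, shares and folds given below rest on this common set and are not the measured composition of a tuft library. A difference between libraries is therefore a difference in the rank of a gene, and a library with many reads of a few genes is not scaled down for it. A gene is called at the floor of a library when it is listed at the lowest value, which was 0 in all 5. Of all listed genes, 7943 (65.32%) lay above the floor in all 5 libraries and 559 lay at the floor in all 5. The number at the floor in any given library ran from 1538 to 2764. Read counts were not used here, so depth is unknown and a value of 0 sets no upper limit on expression.

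The sort and lineage markers were present in every library, and they differed in how steady they were. Siglecf, the lectin of the sort, was listed at 5.62, 6.24, 7.13, 6.80 and 7.52 in libraries 1 to 5. Dclk1, the kinase most used to stain tuft cells, was at 12.73, 11.75, 11.21, 10.68 and 11.66 and held rank 19 of all listed genes. Both were thus high in all 5, but their order over the libraries differed, with library 1 lowest for Siglecf and highest for Dclk1. Trpm5 (mean 7.41 ± 0.32, SD, n = 5 libraries) and Pou2f3 (5.76 ± 0.28) kept narrow ranges, of 7.05 to 7.82 and 5.45 to 6.14. Avil, an actin-bundling protein of the tuft, ran from 7.52 to 8.74. Krt18, a simple epithelial keratin, was at 11.75, 12.53, 13.83, 12.73 and 13.83. In NCBIM37 coordinates Dclk1 lies at chr3:55046448-55342986 on the plus strand, Pou2f3 at chr9:42932022-43018452 on the minus strand, Trpm5 at chr7:150255058-150280547 on the minus strand, and Krt18 at chr15:101858647-101862457 on the plus strand.

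The most abundant transcripts joined nuclear and precursor RNAs, epithelial and tuft genes, iron storage, respiratory chain subunits and acinar secretory products. Malat1, a nuclear long noncoding RNA, had the highest mean (15.20 ± 0.79). Rn45s, the entry of the ribosomal RNA precursor, followed at 14.08 ± 1.47, in libraries whose labels give polyA RNA as the molecule. Cd24a (14.05 ± 1.07), a surface glycoprotein used to sort tuft cells, Fth1 (13.88 ± 0.76), the ferritin heavy chain, and Clps (13.19 ± 2.27), the pancreatic colipase, completed the first 5. Ranks 6 to 10 went to Krt18 (12.94), Ctrb1 (12.81), a chymotrypsinogen, Adh1 (12.67), an alcohol dehydrogenase, Crip1 (12.57), a small LIM-domain protein, and Cox6c (12.49), a cytochrome c oxidase subunit. The top gene was not the same in every library: Rn45s in library 1, Malat1 in libraries 2, 3 and 5, and Ctrb1 in library 4.

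**Figure D1:**
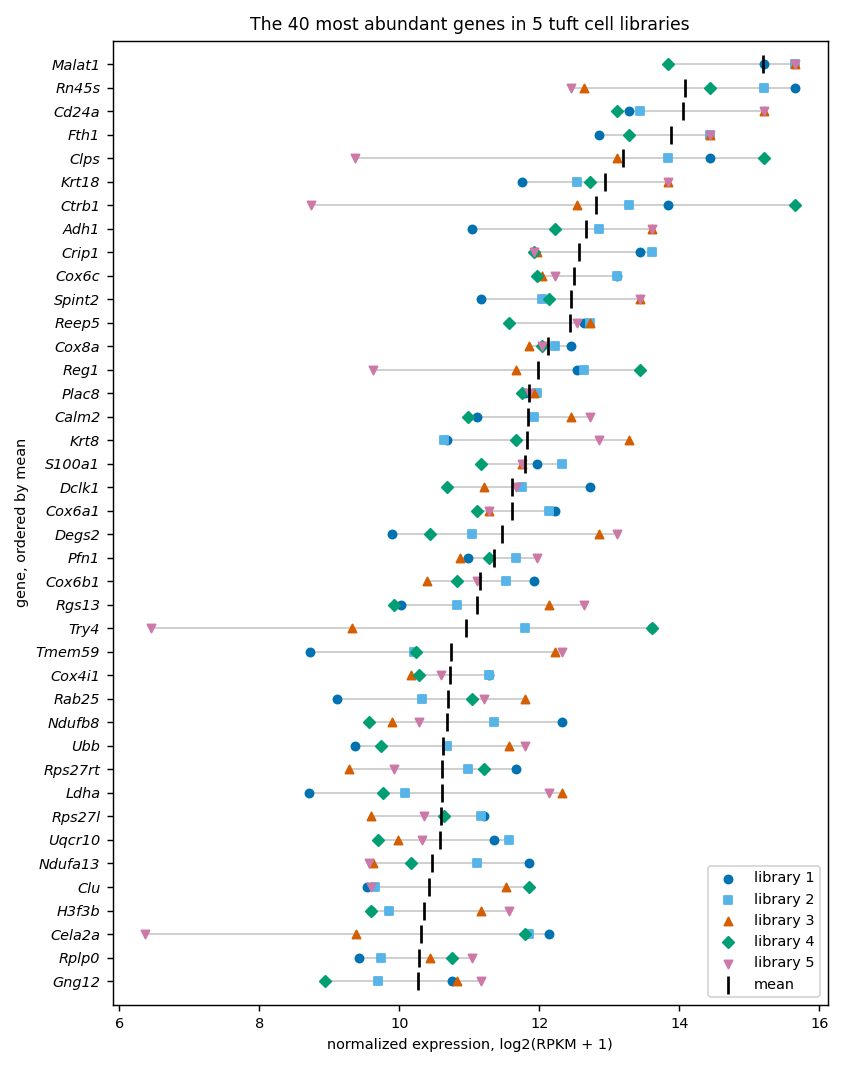
The 40 genes with the highest mean over the 5 tuft cell libraries, with normalized log2(RPKM + 1) on the x axis, one symbol for each library, a vertical tick for the mean and a grey line for the range. Clps, Ctrb1, Try4 and Cela2a have the longest lines, with library 5 far to the left, whereas the symbols of Plac8 and Cox8a nearly coincide.

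A few genes held much of the summed signal. On the linear scale (2 to the log2 value, minus 1), the 10 genes with the highest mean held 29.9% of the sum over all listed genes (27.5% to 32.5% over the libraries), the first 100 held 55.6% and the first 500 held 72.6%. Quantile normalization largely sets this concentration and its narrow range. Whichever genes they belong to, the 10, 100 and 500 highest values of a library held 32.7%, 57.5% and 73.8% of its sum on average. Of the genes that stood among the 100 highest in any library, 172 in number, 48 did so in all 5 libraries and 45 in a single library. The highest-ranked genes were short: the median transcript length was 946 nt for the 97 of the first 100 genes with a length, against 2201 nt for the 10774 listed genes with a length.

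Respiratory chain subunits filled more of the first 100 ranks than the members of any other of the 31 gene lists with a listed member. They took 19 ranks, 10 of them among the first 50, and 50 of the 90 listed members stood among the first 500. Of those near the top, Cox6c, Cox8a, Cox6a1, Cox6b1 and Cox4i1, are nuclear genes for subunits of cytochrome c oxidase. Cox8a was at 12.46, 12.22, 11.85, 12.04 and 12.04 and Cox4i1 at 11.28, 11.28, 10.17, 10.28 and 10.60. The list held 10.7%, 9.22%, 5.06%, 5.50% and 5.77% of the summed linear values in libraries 1 to 5. Libraries 1 and 2 thus stood above the other 3, and 36 of the 74 members with a mean of at least 4 were highest in library 1. Of all 3111 genes with such a mean, 774 were highest in library 1. No mitochondrially encoded gene is among the listed genes.

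Ribosomal protein genes were spread more evenly below that. They took 7 of the first 100 ranks, led by Rplp0 (10.27 ± 0.68), Rpl32 and Rpl35 (the S27-like entries Rps27rt and Rps27l, at 10.61 and 10.59, are not in the list), and 50 of 79 listed members stood among the first 500. Their share of the summed values was 4.31%, 3.10%, 2.21%, 3.76% and 2.50%, with a mean of 3.18% ± 0.87 (SD, n = 5 libraries). Of the 75 members with a mean of at least 4, 50 were highest in library 1 and 48 lowest in library 3. Library 3 was likewise lowest for 37 of the 74 respiratory chain genes. Of all 3111 genes with such a mean, 774 were highest in library 1 and 659 lowest in library 3. Ribosomal protein genes have many near-identical processed copies in the genome, and reads of 50 bases may have been split among them.

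Among genes of the tuft lineage, 6 of the 49 listed tuft cell markers stood in the first 100 and 22 in the first 500. After Cd24a, Krt18 and Dclk1 came Rgs13, a regulator of G-protein signaling (10.02, 10.82, 12.14, 9.92 and 12.63), and the tyrosine kinase Bmx (9.67 ± 0.68). The list held 4.73%, 5.06%, 12.3%, 4.22% and 12.6% of the summed values, a mean of 7.79% ± 4.29. Libraries 3 and 5 stood well above the others, with Cd24a at 15.21 and Krt18 at 13.83 in both, and such a share is weighted to the most abundant members. Of the 40 markers with a mean of at least 4, 13, 13, 31, 10 and 24 were above their own mean in libraries 1 to 5. Over all 3111 genes with such a mean, the counts were 1504, 1677, 1657, 1562 and 1697, so that of library 5 was near this background. Library 5 was highest for 7 of the 40 markers and for 560 of the 3111 genes. Not every marker followed, as Dclk1 was highest in library 1 (12.73) and Trpm5 lowest in library 5 (7.05). With the digestive enzyme genes left out of the sum, an alternative chosen after the values were seen, the mean share was 8.38% ± 3.95.

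**Figure D2:**
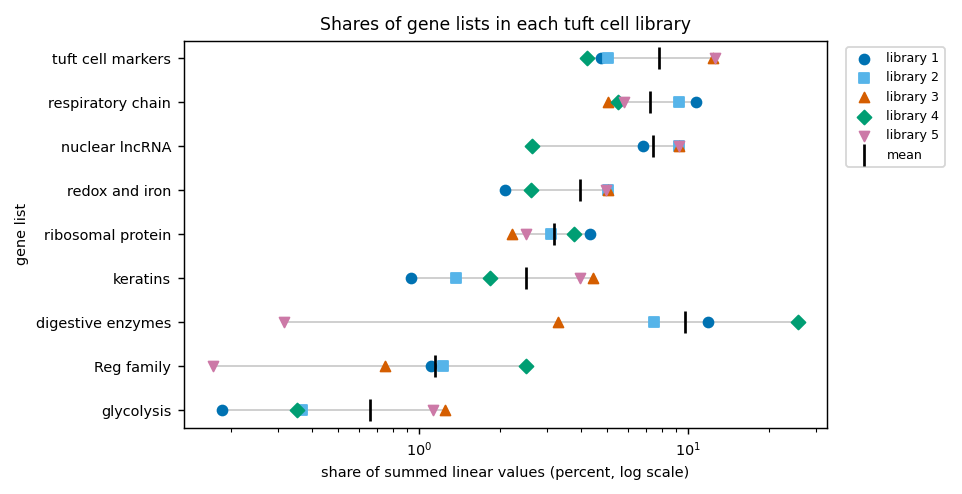
Share of the summed linear values held by 9 gene lists (y axis) in each tuft cell library, in percent on a log scale, with one symbol for each library and a tick for the mean. Digestive enzymes run from 0.314% in library 5 to 25.6% in library 4, while ribosomal protein genes stay between 2.21% and 4.31%.

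The cascade genes downstream of the receptors were listed at unequal levels. Rgs2, a regulator of G-protein signaling, averaged 9.58, and the G-protein subunit Gng13 was at 6.05, 5.97, 4.76, 6.21 and 5.62. Plcb2, the phospholipase of taste transduction, averaged 3.86 ± 0.33 and Gnat3, gustducin, 3.74 ± 0.75. The umami and sweet co-receptor Tas1r3 was at 2.31, 5.23, 4.25, 1.34 and 4.36, and the short-chain fatty acid receptors Ffar3 and Ffar2 averaged 4.21 and 1.79. The succinate receptor gene Sucnr1 was listed at 0 in all 5 libraries. These receptor genes thus lay below the channel and the G-protein regulators, and Tas1r3 ran over a wider range than Trpm5.

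Eicosanoid genes held 0.364% to 0.529% of the summed values. Alox5ap, which presents arachidonic acid to 5-lipoxygenase, was at 8.18, 8.54, 8.89, 8.54 and 8.94, Ltc4s, leukotriene C4 synthase, at 8.47, 9.05, 8.06, 8.24 and 8.36, and Hpgds, the hematopoietic prostaglandin D synthase, at 8.01, 7.31, 8.71, 7.41 and 8.44. Alox5 itself ran from 6.75 to 8.95. Of the cyclooxygenases, Ptgs1 averaged 6.20 ± 0.22 and Ptgs2 3.02 ± 0.85.

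Il25, the cytokine gene of tuft cells, was at 4.80, 3.26, 4.93, 6.20 and 5.30, a wider range than that of Il17rb, which encodes a subunit of its receptor (4.54, 4.63, 4.54, 4.90 and 5.19). Il13ra1, a subunit of the IL-13 receptor, averaged 8.57 ± 0.59 and Il4ra, its partner, 3.62 ± 0.91. Among the transcription factors of the lineage, Sox9 averaged 7.77 ± 0.28, Ehf 7.27 ± 0.31, Spib 7.15 ± 0.28, Ascl2 6.82 ± 0.45, Gfi1b 5.55 ± 0.46 and Hmx2 5.11 ± 0.28, and the share of the list lay between 0.187% and 0.234%. Onecut2 (4.98 ± 1.00) and Klf4 (4.99 ± 0.84) ran over wider ranges.

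To compare spread between genes of different level, the SD over the 5 libraries was divided by the median SD of the 200 genes nearest in rank of mean, giving a spread ratio for the 3111 genes with a mean of at least 4. A ratio of 1 is the spread usual at that level. The median SD was 0.536, 115 genes had an SD under 0.2 and 50 had one over 2. The 311 genes with the highest ratio and the 311 with the lowest each make up 10.0% of the ranked genes, and this share is the background for the counts of list members below. The last gene inside the high group had a ratio of 1.81 and the first outside it 1.80.

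Among genes with a mean of at least 6, Pla2g16, a phospholipase, had the lowest ratio (0.120) and was at 9.19, 9.18, 9.30, 9.13 and 9.27. Plac8, a small cysteine-rich protein, was at 11.79, 11.96, 11.92, 11.75 and 11.85, so that the library with the highest linear value was 1.16-fold above the lowest at rank 15 of all genes. Atp6v1f, a subunit of the vacuolar proton pump, was at 7.86, 7.75, 7.75, 7.85 and 7.93. The 15 lowest ratios also included the ribosomal protein genes Rps3 (8.98 ± 0.096) and Rpl10 (8.18 ± 0.12), the mitochondrial ribosomal gene Mrps14, the initiation factor Eif3g, the succinate dehydrogenase subunit Sdhb, the lipid peroxide reductase Gpx4, the Mediator subunit Med8, and the splicing regulators Mbnl2 and Srsf6. The ratio of the 15th gene was 0.275 and that of the next 0.284.

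Of the lists described above, the 12 eicosanoid genes and the 13 lineage factors with a mean of at least 4 gave 1 (8.33%) and 0 in the low-spread group and 0 and 1 (7.69%) in the high-spread group, which is near the background. The low-spread group held 14 of 50 proteasome and ubiquitin genes (28.0%), 11 of 43 actin cytoskeleton genes (25.6%) and 9 of 44 translation factors (20.5%), beside 10.0% of all ranked genes. For the actin genes, which build the tuft and its rootlets, Arpc3 of the Arp2/3 complex averaged 5.67 ± 0.092, Ezr, ezrin, 4.87 ± 0.11 and Vil1, villin, 7.37 ± 0.18. Ribosomal protein genes gave 9 of 75 (12%), respiratory chain genes 9 of 74 (12.2%) and tuft markers 5 of 40 (12.5%), which are near the background. The tuft markers were Plcg2 (6.27 ± 0.18), Matk (5.81 ± 0.20), Ptgs1, Pik3r5 (5.64 ± 0.24) and Il17rb.

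**Figure D3:**
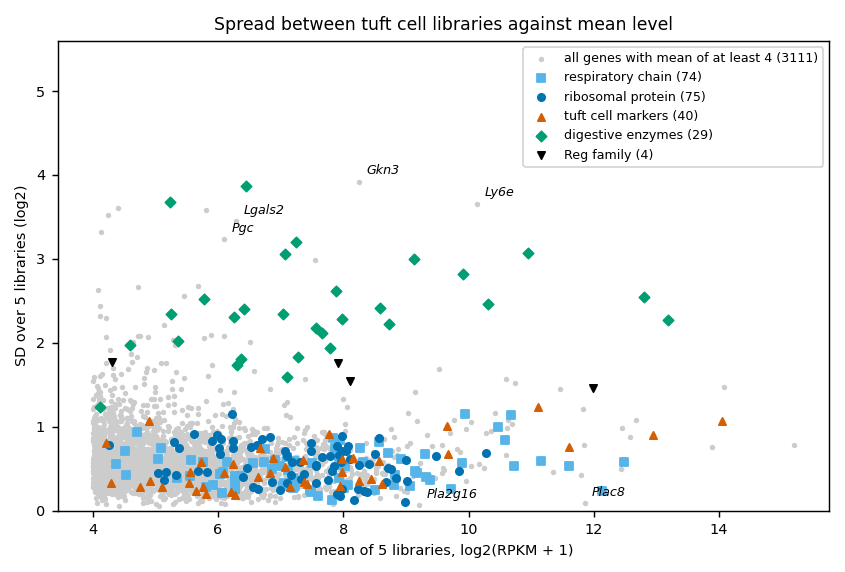
SD over the 5 tuft cell libraries (y axis, log2) against the mean log2(RPKM + 1) (x axis) for 3111 genes, with members of 5 lists in colour. The digestive enzyme and Reg family genes lie above the cloud at every level, with SDs of 1.24 to 3.87 for the digestive enzymes, while ribosomal protein, respiratory chain and tuft marker genes lie within it.

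Acinar secretory products were the least steady class. Of 39 listed digestive enzyme genes, 29 had a mean of at least 4, and all 29 were among the 311 genes with the highest spread ratio, which hold 10.0% of all ranked genes. Their median ratio was 4.39 and their median SD 2.34, against 0.536 for all ranked genes. Ctrb1 was at 13.83, 13.27, 12.53, 15.65 and 8.74, Clps at 14.43, 13.83, 13.11, 15.21 and 9.37, and the trypsinogen Try4 at 13.61, 11.79, 9.32, 13.61 and 6.44. The libraries came in much the same order for these genes, with library 4 highest (level with library 1 for Try4) and library 5 lowest. Over the 29, library 4 was highest for 21 and library 1 for 8, and library 5 was lowest for 24. Over all 3111 ranked genes, library 4 was highest for 526 and library 1 for 774, and library 5 was lowest for 412. Ties between libraries 1 and 4, as for Try4 and Cpa1, were counted for library 1. The chymotrypsin-like gene Ctrl had the largest ratio of any gene with a mean of at least 6, 8.02, with values of 8.98, 8.99, 1.31, 9.67 and 3.26.

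As a share of the summed linear values, the digestive enzyme genes held 11.9%, 7.50%, 3.27%, 25.6% and 0.314% in libraries 1 to 5, which is 81.4-fold more in library 4 than in library 5. The mean was 9.71% ± 9.88, and 5.75% without library 4. Over the 28 genes above the floor in every library, the highest library was 60.3-fold above the lowest in the median, from 9.50-fold for the lipase-related Pnliprp2 to 549-fold for Ctrl. Of 7 listed factors of acinar cells, only Xbp1, a secretory pathway factor found in many cell types, averaged at least 4 (6.99 ± 0.72). Ptf1a, the acinar master regulator, was at the floor in 3 libraries and at most 0.62, and Rbpjl, its partner, averaged 0.72. Bhlha15, another acinar factor, was at 2.36, 3.23, 3.28, 2.35 and 3.01. Its lowest values were thus in libraries 4 and 1, where the enzymes were high. The 7 factors as a list did not share this order. Their median was 2.36, 1.37, 2.59, 2.31 and 0.39, lowest in library 5, where the enzymes were lowest too. What these low values say about the source of the enzyme transcripts was not tested. The trypsinogen (Try4, Try5, Try10, Prss1, Prss2, Prss3, Gm5771, 2210010C04Rik, 1810009J06Rik) and amylase (Amy1, Amy2a2, Amy2a3, Amy2a4, Amy2a5, Amy2b) genes are near-identical copies, and the split of reads among them is uncertain. Amy2a5 was at 8.51, 10.24, 7.98, 11.35 and 5.55, whereas Amy2a2, Amy2a3 and Amy2a4 averaged 0.40, 1.18 and 0.39.

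The Reg genes, secreted lectins of injured pancreas and gut, were also highest in library 4. Reg1, at rank 14, was at 12.53, 12.63, 11.66, 13.44 and 9.63 and Reg3b at 6.45, 7.25, 8.90, 10.52 and 6.47. All 4 members with a mean of at least 4 were in the high-spread group and all peaked in library 4. Library 5 was lowest for 3 of the 4. Of all 3111 ranked genes, 526 were highest in library 4 and 412 lowest in library 5.

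**Figure D4:**
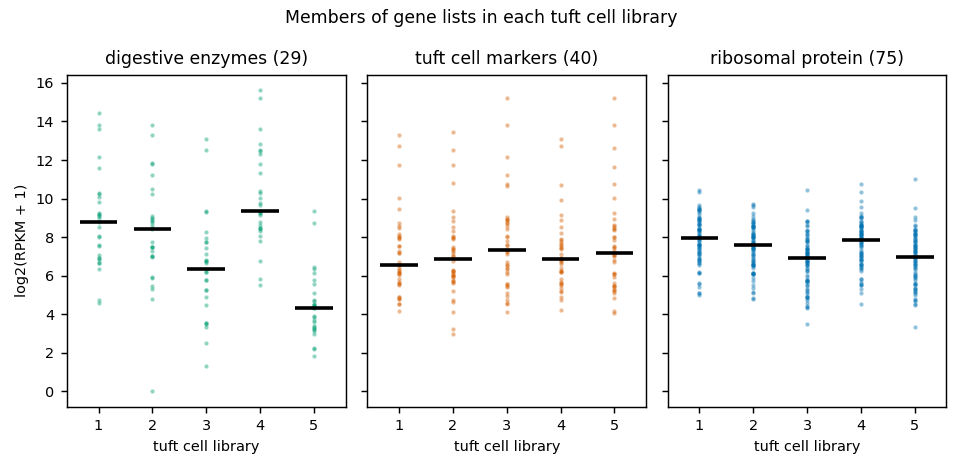
Values of each member with a mean of at least 4 (points) in tuft cell libraries 1 to 5 (x axis) for 3 gene lists, in log2(RPKM + 1), with black bars for the median of the members. The median of the digestive enzymes runs from 4.32 in library 5 to 9.38 in library 4, that of the tuft cell markers from 6.53 in library 1 to 7.34 in library 3, and that of the ribosomal protein genes from 6.92 in library 3 to 7.98 in library 1.

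Because the digestive enzyme genes moved together, the 50 bases before their starts were read from RefSeq promoters (build GRCm38.p6, so not on the coordinates of the files). The letters ATAAA, the core of a TATA box, were searched on the strand of the gene. They were found in 15 of 32 digestive enzyme genes with a promoter (46.9%) and in 4 of 6 Reg genes, against 399 of 9112 listed genes (4.38%) and 2097 of 27025 promoters in all (7.76%). The share was also above that of all listed genes in other lists, with 4 of 7 keratins (57.1%), 4 of 9 ductal genes (44.4%), 4 of 9 nuclear lncRNAs (44.4%) and 8 of 32 immediate early genes (25%), so the letters are not particular to the digestive enzymes. None of 58 ribosomal protein genes and 2 of 72 respiratory chain genes (2.78%) held them. The windows of the 5 most abundant digestive enzyme genes with a promoter are shown with ATAAA in capitals, followed by those of Cox8a, the second most abundant respiratory chain gene, and of Rps3 and Atp6v1f from the 15 lowest spread ratios, all of which lack it.
Ctrb1 (chr8:111691011-111691060, minus strand): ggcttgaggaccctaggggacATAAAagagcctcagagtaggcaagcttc
Try4 (chr6:41302222-41302271, plus strand): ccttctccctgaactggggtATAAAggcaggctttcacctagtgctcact
Cela2a (chr4:141826006-141826055, minus strand): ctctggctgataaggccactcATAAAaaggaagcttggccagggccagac
Prss2 (chr6:41521726-41521775, plus strand): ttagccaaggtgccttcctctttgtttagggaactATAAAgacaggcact
Amy2a5 (chr3:113258700-113258749, minus strand): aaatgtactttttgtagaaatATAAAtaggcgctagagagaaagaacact
Cox8a (chr19:7217617-7217666, minus strand): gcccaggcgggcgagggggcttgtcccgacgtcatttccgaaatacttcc
Rps3 (chr7:99483710-99483759, minus strand): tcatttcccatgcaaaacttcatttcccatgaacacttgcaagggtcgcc
Atp6v1f (chr6:29467733-29467782, plus strand): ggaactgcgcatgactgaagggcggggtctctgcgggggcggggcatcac

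Pou2f3 belongs to the POU factors that bind the octamer ATGCAAAT. In RefSeq promoters from 250 bases before to 50 after the start, these letters stood on either strand in 5 of 41 tuft marker genes (12.2%), against 149 of 9112 listed genes (1.64%) and 1.97% of all promoters. The share was also above that of all listed genes in other lists. These included 3 of 32 immediate early genes (9.38%), 1 of 9 ductal genes (11.1%) and 1 of 7 fibroblast genes (14.3%). The letters are thus not particular to the tuft markers. None of 58 ribosomal protein and 32 digestive enzyme genes held them. The 5 tuft marker genes are shown with 15 bases on each side and the octamer in capitals, from the highest mean level to the lowest.
Hpgds (chr6:65144882-65144919, minus strand): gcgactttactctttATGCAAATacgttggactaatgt
Il4ra (chr7:125552117-125552154, plus strand): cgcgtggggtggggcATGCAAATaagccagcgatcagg
Kctd12 (chr14:102982775-102982812, minus strand): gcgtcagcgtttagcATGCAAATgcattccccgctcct
Itpr3 (chr17:27057262-27057299, plus strand): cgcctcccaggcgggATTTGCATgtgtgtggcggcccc
Sucnr1 (chr3:60081806-60081843, plus strand): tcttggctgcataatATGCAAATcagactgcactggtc

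Their levels differed widely. Hpgds averaged 7.98 ± 0.62, Il4ra 3.62 ± 0.91 and Itpr3, an inositol trisphosphate receptor, 3.11 ± 0.96, while Sucnr1 was listed at 0 throughout. Kctd12, a potassium channel tetramerization domain protein listed among tuft markers, was at 8.51 in library 2 and 8.19 in library 4 and at 0 in the other 3. A match in these windows is a description of letters and no measure of binding.

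Genes other than digestive enzymes also varied. Gkn3, a gastrokine of the stomach, was at 12.04, 10.36, 7.75, 1.82 and 9.29 (ratio 7.77), and Pgc, the pepsinogen C gene, at 8.75, 8.24, 2.73, 2.39 and 8.40 (6.56). Muc6, a gland mucin chosen after its values were seen, was at 6.24, 5.23, 2.06, 0.55 and 6.36, in the same pattern as Pgc. All 3 were lowest in library 4, where most digestive enzymes were highest. Ly6e, a GPI-anchored surface protein, was at 9.23, 12.46, 4.17, 11.53 and 13.27, and Lgals2, a galectin, at 5.97, 9.92, 3.73, 9.61 and 2.20. Ly6e was lowest in library 3 and Lgals2 in library 5. The ductal gene Spp1, osteopontin, was at 7.43, 8.39, 4.59, 5.01 and 3.47, and Krt19, a ductal keratin, at 4.59, 4.76, 3.96, 6.68 and 1.39.

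Glycolytic genes were graded in another way. Ldha, lactate dehydrogenase A, was at 8.71, 10.08, 12.32, 9.76 and 12.14, Eno1, enolase, at 4.26, 5.48, 7.37, 6.69 and 7.03, and Hk1, hexokinase, at 2.43, 5.86, 6.44, 6.32 and 5.57. Library 1 was lowest for 8 of the 9 members with a mean of at least 4, beside 852 of all 3111 ranked genes. Of the 9, 4 were in the high-spread group. Library 1 was also lowest for Krt18, Adh1 and Spint2, and highest for the ribosomal protein and respiratory chain lists. Gapdh, often used as a reference gene, was listed at 2.14, 0, 1.75, 0 and 0. Since every cell uses this enzyme and the mouse genome holds many near-identical Gapdh copies, a listed 0 is not read as absence here. Of 20 common reference genes looked for after the values were seen, 19 were listed, and the steadiest with a mean of at least 4 was Sdha (5.92 ± 0.30), followed by Ywhae (7.59 ± 0.39), with Actb at 10.24 ± 0.51.

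Immediate early genes, which respond to stress and tissue dissociation, held their largest share in library 4. Egr1 was at 5.30, 4.34, 3.74, 7.43 and 4.17, Ier2 at 6.31, 5.18, 6.63, 7.89 and 6.67 and Fos at 5.55, 4.28, 0.97, 5.97 and 0.93. The list held 0.236% of the summed values in library 4 and 0.102% to 0.145% in the others. Among the 12 members with a mean of at least 4, 2 (16.7%) were in the high-spread group. Of these 12, 4 were highest in library 4, 3 in library 1, 2 in library 3 and 3 in library 5. Of all 3111 ranked genes, 526 were highest in library 4. Egr1, Ier2 and Fos, all highest in library 4, thus do not stand for the whole list. Genes of antigen presentation followed another order, with H2-K1 at 6.09, 5.33, 8.06, 7.90 and 7.92 and B2m at 6.65, 7.36, 7.68, 8.12 and 7.85, so that libraries 3, 4 and 5 stood above 1 and 2.

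Each library also held transcripts of genes listed for other cell types, and the types differed by library. As the background for the counts below, 9669, 9396, 10409, 9627 and 10622 of the 12160 listed genes were above the floor in libraries 1 to 5. All 12 listed fibroblast genes were above the floor in library 5, with Dcn, decorin, at 6.84, Lum, lumican, at 6.19 and Col3a1 at 5.10. In libraries 1 to 3 all 12 were at the floor, and in library 4 only Sparc, at 2.23, was above it. Islet and endocrine genes stood mainly in library 1, where 13 of 21 were above the floor, with Pyy at 5.98, Scg3 at 5.73 and Chga at 2.87, against 2 to 7 of 21 in the others. In every library this was a smaller share than that of all listed genes. Their share of the summed values was 0.031% in library 1 and at most 0.0053% elsewhere. The list leaves out Gip, a gut hormone gene described below, which alone held 0.285% in library 1. Chga was at the floor outside library 1, and Gcg, the glucagon gene, was at the floor in all 5.

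Some leukocyte genes were above the floor in every library, although the gate excluded cells with Cd45 protein. Ptprc, which encodes Cd45, was at 3.97, 4.33, 2.74, 2.74 and 3.45 in libraries 1 to 5. Of 19 listed leukocyte genes, 5, 5, 14, 10 and 15 were above the floor. In every library this was a smaller share than that of all listed genes, which was likewise largest in libraries 3 and 5. Macrophage genes stood in library 3, with Lyz2 at 4.92, C1qa at 2.81 and Csf1r at 2.69, while the B cell genes Cd79a and Ms4a1 were at 3.38 and 1.73 in library 4 and at 3.56 and 2.32 in library 5. The T cell gene Cd3g was above the floor only in library 5, at 1.92. The list held 0.0087%, 0.0053%, 0.0229%, 0.0398% and 0.023% of the summed values in libraries 1 to 5. Ptprc ran against this order, being highest in libraries 1 and 2, where the list held its smallest shares. Whether its reads came from leukocytes was not tested. Cd74, the invariant chain of antigen presentation, was at 0, 0.98, 5.42, 6.22 and 5.48. No gene of the eosinophil list, whose cells also carry Siglec F, was among the listed genes.

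**Figure D5:**
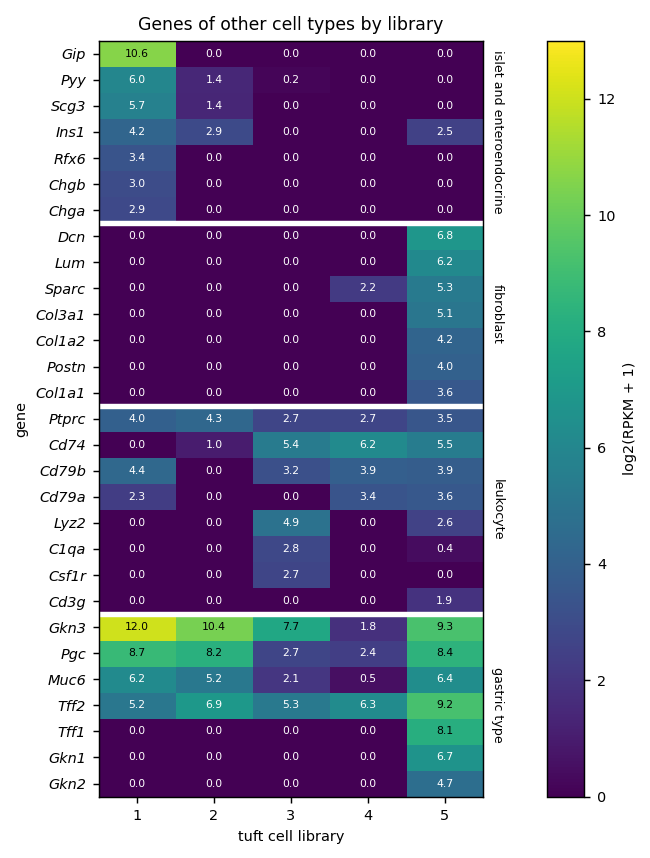
Log2(RPKM + 1) of 29 genes of other cell types (y axis) in tuft cell libraries 1 to 5 (x axis), as colour and as printed values. Gip is high in library 1, where the other endocrine genes reach lower values. Fibroblast genes stand mainly in library 5, and Tff1, Gkn1 and Gkn2 are above 0 only in library 5, whereas Ptprc is above 0 in all 5.

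Some genes were at the floor in some libraries and high in others. A value of at least 6 in a library beside a floor value in another was found for 34 genes, a rule set after the values were seen, and for 8 of these a single library was above it. Gip, the incretin of intestinal K cells, was at 10.64 in library 1, where it held rank 37, and at 0 in the other 4. Tff1 (8.14), a trefoil peptide of gastric pit cells, and the gastrokines Gkn1 (6.68) and Gkn2 (4.71) were above the floor only in library 5. Retnla, a product of alternatively activated macrophages, was at 8.88 in library 3 and 0.70 in library 5. Mir17hg, the host transcript of a microRNA cluster, was at 3.90 in library 1 and 8.47 in library 4. No gene with a mean of at least 6 was at the floor in any library, the highest such mean being 5.80 for Rnps1, a splicing factor (4.74, 0, 7.61, 7.82 and 8.85). Genes above the floor in a single library numbered 111, 77, 150, 168 and 275 for libraries 1 to 5.

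Proliferation genes were low in all libraries. Of 29 listed, 8 were at the floor in all 5, and the highest mean was that of Hmgb2, a chromatin protein, at 2.82. Their share lay between 0.0037% and 0.009% of the summed values.

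Among small RNA entries with a mean of at least 6, Mir686 had the highest spread ratio (4.25), with values of 2.42, 6.51, 7.21, 6.86 and 7.46 (6.10 ± 2.08). The entry lies at chr14:55235514-55235622 of NCBIM37 on the minus strand, inside the gene of the proteasome subunit Psmb5 (chr14:55232644-55236851, minus strand), over all 109 of its bases. Psmb5 itself was among the steadiest proteasome genes, at 6.64, 6.24, 6.46, 6.45 and 6.62. Reads of Psmb5 and of the entry cannot be told apart at these bases, and the library method captures polyadenylated RNA rather than mature microRNA. The mature sequence from RefSeq (GRCm38.p6, chr14:54616746-54616767, minus strand) is shown with its seed, bases 2 to 8, in capitals.
mmu-miR-686: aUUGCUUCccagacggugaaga

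Compared pairwise over all listed genes, libraries 3 and 5 were the most alike. They shared 90 of their 100 highest genes, against 59 to 75 for the other 9 pairs, and the median absolute difference over the 3111 ranked genes was 0.273, against 0.503 to 0.776. They were not the same library, since only 14 genes above the floor had equal values in both and Clps was at 13.11 in library 3 and 9.37 in library 5. The Euclidean distance between them was 100.5, against 136.9 to 149.5 for the other pairs. Libraries 3 and 5 also had the fewest genes at the floor, 1751 and 1538, against 2491, 2764 and 2533 in libraries 1, 2 and 4. The part of this in their likeness was not tested. Among genes picked after their values were seen, both were higher than the other 3 libraries for Cd24a, Krt8, Degs2, Tmem59, Rgs13 and Ldha. Krt8, the partner of Krt18, was at 10.68, 10.64, 13.27, 11.66 and 12.86, and Degs2, a sphingolipid desaturase, at 9.89, 11.03, 12.86, 10.43 and 13.11. Whether depth, RNA quality or a processing day moved with this likeness was not tested, because the labels give none of them. The same holds for recovery time and PCR cycles, for which the study's methods give only ranges.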

How the data were processed

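RNA from 100 sorted cells per library was read as 50 bp single-end Smart-Seq2 libraries. Per the study's methods, the authors mapped reads to mm9 with Hisat2, used Stringtie and Ballgown to obtain RPKM per gene, removed genes with an RPKM variance under 1, and deposited the log2(RPKM + 1) values after quantile normalization; the added 1 is read from the floor of 0. The authors also deposited a fold change, a p-value and an FDR per gene for tuft against non-tuft cells, and none of these was used. Tool versions are not given in the sources used here. Amplification took place before sequencing, and neither depth nor counting error can be given from these values. Of the listed names, 18 read as dates and were kept as listed.

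Libraries were grouped by their sample labels, which describe 5 biological replicates, each from an individual mouse. No contrast and no test was run, since 1 group is described. The mean, SD, range and rank of every gene were computed over the 5 libraries. Linear values were 2 to the log2 value, minus 1. The spread ratio was computed for genes with a mean of at least 4, against the 100 genes on each side in rank of mean. The script for this ratio was tested on simulated data. The 33 gene lists were compiled by hand, and 2 of them (mitochondrially encoded genes and eosinophil markers) had no listed member. The members and the lists were chosen with earlier results of these data known. Genes named by rule were the 6 sort and lineage markers, the 40 highest means, the 15 highest and 15 lowest spread ratios among genes with a mean of at least 6, the 4 highest members of each list, and the members of the cell type lists whose value in every library is given. Any other gene was picked with its values in view. Of the genes selected by the rule, 1 is not reported here.

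Positions and transcript lengths came from an NCBIM37 annotation by gene name, and 88.6% of listed genes had a length. Promoter and microRNA sequences came from RefSeq (GRCm38.p6). Alternatives were the ranking by median or linear mean, added constants of 0.1 and 10, other filters on low values, the SD itself, another floor, and each library left out in turn. Tables were computed in Python 3.11.15 with pandas 2.3.3, numpy 2.4.6 and scipy 1.17.1, and plots drawn with matplotlib 3.10.9.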

Additional observations from a re-analysis of the deposited data

Results flagged for a closer look

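A library far from the other 4 was looked for in 72 named genes and 4 list shares, by the gap of the highest or lowest library to its nearest neighbour over the whole range. Chance alone marks about 1 in 20 such groups, and 4 of the 76 were marked. Malat1 was lowest in library 4 (13.83, against 15.21 to 15.65 in the others), and so was Reep5, an endoplasmic reticulum shaping protein (11.57, against 12.53 to 12.73). Malat1 held ranks 2, 1, 1, 4 and 1 in libraries 1 to 5. Its 15.65 in libraries 2, 3 and 5 is the highest value that normalization gives, so the rate of 1 in 20 need not hold for it. Gm5771, a trypsinogen entry with near-identical copies, was highest in library 4 (12.63, against 4.70 to 6.89). Cel, the bile salt-activated lipase, was lowest in library 5 (2.24, against 6.67 to 8.04). In library 4 the digestive enzyme genes held their largest share, and in library 5 their smallest, as described above, and their part in these values was not tested.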

How the results depend on the processing

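No paired analysis was possible because every result comes from 1 group and from no test. Counts were taken as unchanged within 1.5-fold and shares within 1 SD. For the digestive enzyme share this limit is wide, as its SD exceeds its mean, and the share ran from 5.75% (without library 4) to 12.1% (without library 5) around 9.71%. Of 33 values under other settings, 27 were unchanged, and of 60 with a library left out, 53. Ranked by the mean of linear values, 10 digestive enzyme genes rather than 6 stood in the first 100. The immediate early genes in the high-spread group, 2 as reported, numbered 1 with a mean of at least 6, 8 with no filter on low values, 1 by the SD itself, and 0 (without library 4) to 4 (without library 3) with a library left out. The tuft markers in the low-spread group, 5 as reported, numbered 2 with a mean of at least 6 and 3 (without library 1, 2 or 4) to 7 with a library left out. Ribosomal protein genes there, 9 as reported, numbered 5 (without library 2) to 8. The low-spread counts of the proteasome and ubiquitin, actin cytoskeleton and translation factor lists were not checked under other settings or with a library left out. Genes at the floor in all 5 libraries rose from 559 to 897 when values under 1 counted as the floor. The cause of these changes was not tested. Of the 40 most abundant genes, 36 to 38 remained when a library was left out. Depth is unknown, so low values and zeros are the least certain.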
